A study of Mus musculus with 13 samples.

Results

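Of the 36109 genes listed in the 13 libraries, 10191 were annotated as processed pseudogenes, and 160 of these were expressed in aortic endothelial cells (ECs) or heart tissue of Hmox2+/+ and Hmox2-/- mice. A pseudogene was counted as expressed where its mean TPM (a share of all transcripts in the library, corrected for length) was at least 5 in at least 1 of the 4 groups. The members were thus chosen by their measured level, which is given below as a description. GENCODE M39 typed 124 of the 160 as processed pseudogenes and 36 as transcribed processed pseudogenes. They lay on 20 chromosomes, 6 of them on the X chromosome, and none within 10 Mb of Hmox2.

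A processed pseudogene is a copy of a messenger RNA that was reverse transcribed and inserted back into the genome, so it lacks the introns and usually the promoter of its parent gene. Genes with abundant, short messages, above all those of ribosomal proteins, have left many such copies, and some still differ from the parent by few bases or none. Reads from a recent copy and from its parent can then be hard to tell apart, which is why each pseudogene is set beside its parent here.

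The study asked how deletion of Hmox2, which encodes heme oxygenase-2, a constitutive enzyme of heme breakdown, changes the transcriptome of aortic ECs and the heart. RNA came from aortic ECs of Hmox2+/+ mice (3 libraries) and Hmox2-/- mice (3 libraries) and from whole hearts of Hmox2+/+ mice (4 libraries) and Hmox2-/- mice (3 libraries), all kept in room air, and the study describes the Hmox2+/+ mice as littermates. The labels used here give no age, sex or strain, do not tie an EC library to a heart library, and do not name the cells in which Hmox2 was removed beyond the genotype. Libraries were made from polyadenylated RNA with strand kept. Libraries of a group are taken as separate mice, which the labels do not state, and p-values measure the spread between these libraries.

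Libraries held 26067147 to 31138642 estimated counts in ECs and 29815090 to 31619776 in heart tissue, apart from Hmox2+/+ heart replicate 1 with 7268626. Hmox2 itself was at 63.9 to 76.2 CPM (counts scaled to library size) in Hmox2+/+ ECs against 12.6 to 14.7 in Hmox2-/- ECs, and at 37.3 to 42.5 against 7.53 to 8.90 CPM in heart tissue. The log2 fold change (Hmox2-/- over Hmox2+/+) was -2.34 ± 0.13 (SE) in ECs and -2.30 ± 0.11 in heart tissue (edgeR's quasi-likelihood test, Benjamini-Hochberg adjusted p = 0.000131 and 1.58e-07), and an exact two-sided permutation test gave p = 0.1 and 0.0571, the smallest that these group sizes allow. All 6 endothelial markers were detected in the ECs, with a summed level of 2747 to 4023 CPM in Hmox2+/+ and 4813 to 5860 CPM in Hmox2-/- ECs. The 6 cardiomyocyte markers summed to 103 to 404 CPM in Hmox2+/+ ECs and to 5.33 to 8.35 CPM in Hmox2-/- ECs, and 5 of the 6 were called lower. The 4 fibroblast markers summed to 1377 to 2660 and 3811 to 4485 CPM in ECs of the same 2 genotypes, and the 4 smooth muscle markers to 3096 to 6042 and 980.2 to 3447 CPM. In these EC libraries the 4 adipocyte markers summed to 2993 to 4942 CPM in Hmox2+/+ and 3495 to 4202 CPM in Hmox2-/- mice. The 3 erythroid genes summed there to 1524 to 2373 and 1210 to 2269 CPM. In heart tissue the 3 erythroid genes summed to 121 to 222 CPM in Hmox2+/+ and 592 to 985 CPM in Hmox2-/- mice, all called higher. The Y-linked gene Ddx3y was at 1.03 and 0.92 CPM in Hmox2-/- EC replicates 2 and 3 and at 37.0 to 86.5 CPM in the other 11 libraries. The part of these markers in the pseudogene results was not tested, and in bulk RNA fewer cells of a type and less RNA per cell cannot be told apart.

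Most members were near-identical copies of a coding sequence. A parent gene was named where its transcripts held at least 20% of the 31-base words of the pseudogene, the word length at which the quantification compares reads with transcripts. Of the 160 members, 115 matched the coding sequence of 100 parents, 18 matched 8 genes only outside the coding sequence, 3 overlapped the gene they matched, and 24 had no parent. Identity of the 115 coding copies with the parent was 95.7% to 100% over the aligned bases, 59 had no mismatch or gap over their whole length, and 95 covered at least 95% of the parent's coding sequence. Of the coding copies, 69 held no 31-base word of their own, so no read of that length could be assigned to them alone, and the highest share of own words among them was 28.9%. Cytosolic ribosomal proteins made up the largest group of parents, with 35 copies, followed by 10 of ubiquitin and proteasome genes, 9 of mitochondrial proteins, 7 of chromatin and high-mobility-group (HMG) proteins, 6 of glycolytic enzymes and 6 of translation factors or RNA-binding proteins.

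The most abundant member by mean TPM over the 4 groups was Rps12-ps3, a copy of the gene of a small-subunit ribosomal protein, with a mean of 923 TPM. Its mean level was 1434 ± 347 TPM (SD, n = 3) in Hmox2+/+ ECs against 116 ± 20.7 for Rps12 itself, and the pseudogene took 89.5% to 95.2% of the counts of the pair in all 13 libraries. The next were Tpt1-ps3 (copy of Tpt1, translationally controlled tumor protein) at 709, Rps23-ps1 at 662, Gm12338 (copy of Cox7c, a cytochrome c oxidase subunit) at 662, Gm7536 (copy of Rpl27a) at 602, Gm10443 (copy of Rps28) at 547, Ndufb4c (copy of Ndufb4, a complex I subunit) at 493, Rpl34-ps1 at 401, Rpl31-ps8 at 386 and Gm12191 (copy of Rpl30) at 384 TPM. Length moves this scale, since 16 members were shorter than 200 bases and the effective length of Gm12338, of 192 bases, was 21.9 bases. Together the members took 0.460% to 0.596% of the counts in Hmox2+/+ ECs, 0.234% to 0.269% in Hmox2-/- ECs, 0.1997% to 0.266% in Hmox2+/+ hearts and, with Hmox2 deleted, 0.250% to 0.380% of heart counts. The highest group mean was 5.10 TPM for Gm42935 and 5.35 TPM for Gm15429, the members just inside the threshold, and 4.92 TPM for Gm18787 and 4.89 TPM for Gm45380, just outside it.

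In ECs, pseudogenes were mostly lower in Hmox2-/- mice. A gene was called where the adjusted p of edgeR's quasi-likelihood test over all genes was at most 0.05 and the change at least 2-fold. Of 129 members tested, 7 were called higher and 52 lower, where 5.39% of all 15301 genes tested were called higher and 3.89% lower (9.28% in either direction). The ranges of the 2 genotypes were separate for 92 of the 129 tested, beside 40.7% of all genes. They were separate for all 59 called members, as a call favours. Members that reached the threshold only through their level in one genotype had to differ, so the cleanest count is that of the members at 5 TPM or more in both genotypes. Of these 57 members 55 were tested, 0 were called higher and 12 lower, at a median log2 fold change of -0.84 against -0.02 over all genes. Of 56 tested members at the threshold only in Hmox2+/+ ECs 40 were called lower, and of 11 at the threshold only in Hmox2-/- ECs 7 were called higher, as the choice of members favours. In 4 pairs of members both have the same sequence and the same values, and with each pair counted once 6 were called higher and 50 lower of 125 in ECs and 19 higher and 25 lower of 124 in heart tissue. Without Hmox2-/- EC replicate 2 the count of lower calls was 50, and without replicate 3 it was 37.

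In heart tissue the abundant copies went the other way. Of 128 members tested, 20 were called higher and 25 lower, beside 2.66% and 4.05% of all 13816 genes tested (6.71% in either direction). The ranges of the genotypes were separate for 74 of the 128 tested, beside 40.4% of all genes. They were separate for 41 of the 45 called members, as a call favours. Among the 69 members at 5 TPM or more in both genotypes, all tested, 10 were called higher and 2 lower, at a median log2 fold change of 0.69 against -0.01 over all genes. The 100 parents of coding copies were shifted upward in heart tissue as well, at a median of 0.40 alone and 0.47 with their pseudogenes added. In ECs these medians were 0.06 and -0.05. Of 21 tested members at the threshold only in Hmox2+/+ hearts 20 were called lower, and of 24 at the threshold only in Hmox2-/- hearts 9 were called higher. The count of higher calls rested partly on single libraries. It was 12 without Hmox2-/- replicate 1, 29 without Hmox2-/- replicate 3 and 21 without the shallow Hmox2+/+ replicate 1, while lower calls numbered 23 to 26.

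All genes were called higher and lower at 5.39% and 3.89% in ECs and at 2.66% and 4.05% in heart tissue, and all members at 7 and 52 of 129 and at 20 and 25 of 128. By function of the parent, 15 of 32 tested ribosomal protein copies were called lower and 2 higher in ECs, and 5 of 30 were called lower and 8 higher in heart tissue. Of the copies of glycolytic genes (Gapdh, glyceraldehyde-3-phosphate dehydrogenase, and Pgk1, phosphoglycerate kinase), 5 of 6 were called lower in ECs and 1 of 6 higher in heart tissue. The Gapdh copies Gm10359 and Gm12671 among them are identical in sequence and values, so the EC calls were 4 of 5 with that pair counted once. Of the mitochondrial copies, 3 of 8 were called lower in ECs and 4 of 9 higher in heart tissue. Chromatin and HMG protein copies were called lower in 5 of 6 cases in ECs, and in heart tissue 2 of 7 were called higher and 2 lower. Ubiquitin and proteasome copies were called lower in 4 and higher in 1 of 10 cases in ECs, with 0 called of 8 in heart tissue, and translation factor and RNA-binding copies were called lower in 4 of 6 cases in ECs, with 0 called of 4 in heart tissue. All of these groups have few members, and each count includes members chosen through the genotype in which they were high.

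Most parents were not called along with their copies. Of the 54 coding copies called in ECs, the parent was called in the opposite direction for 8, in the same direction for 0, and not called for 46. These 8 are not separate cases, since Rps3a1, Hmgb1 and Rpl29 each stand behind more than 1 of them. Their other parents were Rps7 and Carnmt1. Of the 32 called in heart tissue, the parent was called in the opposite direction for 6, in the same direction for 3, and not called for 23. Among these 6, Rps3a1 and Rpl29 each stand behind more than 1, beside Rps7 and Hspa8. The Rpl29 copies Gm13841 and Gm8210 have the same values in both tissues. When the counts of every processed pseudogene were added to the parent and the whole table was tested again, 1 of the 46 families behind the called EC copies and 3 of the 27 behind the called heart copies still passed, beside 5.25% of all features called higher and 3.54% lower in ECs and 2.54% and 3.76% in heart tissue. The family sums called were Rpl29, lower, in ECs and Hmgn2, higher, Ppp1r14b, higher, and Dst, lower, in heart tissue. The family sums behind the called copies had a median log2 fold change of -0.09 in ECs (18 of 46 above 0) and 0.60 in heart tissue (23 of 27 above 0). Of the 100 parents of coding copies, 5 were called higher and 1 lower in ECs alone and 1 and 1 with their pseudogenes added. In heart tissue 7 were called higher and 2 lower alone and 5 and 1 with the pseudogenes added. Only processed pseudogenes with a named parent enter a sum. It does not depend on how reads were divided within that family, but reads shared with genes outside the family can still move it.

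**Figure D1:**
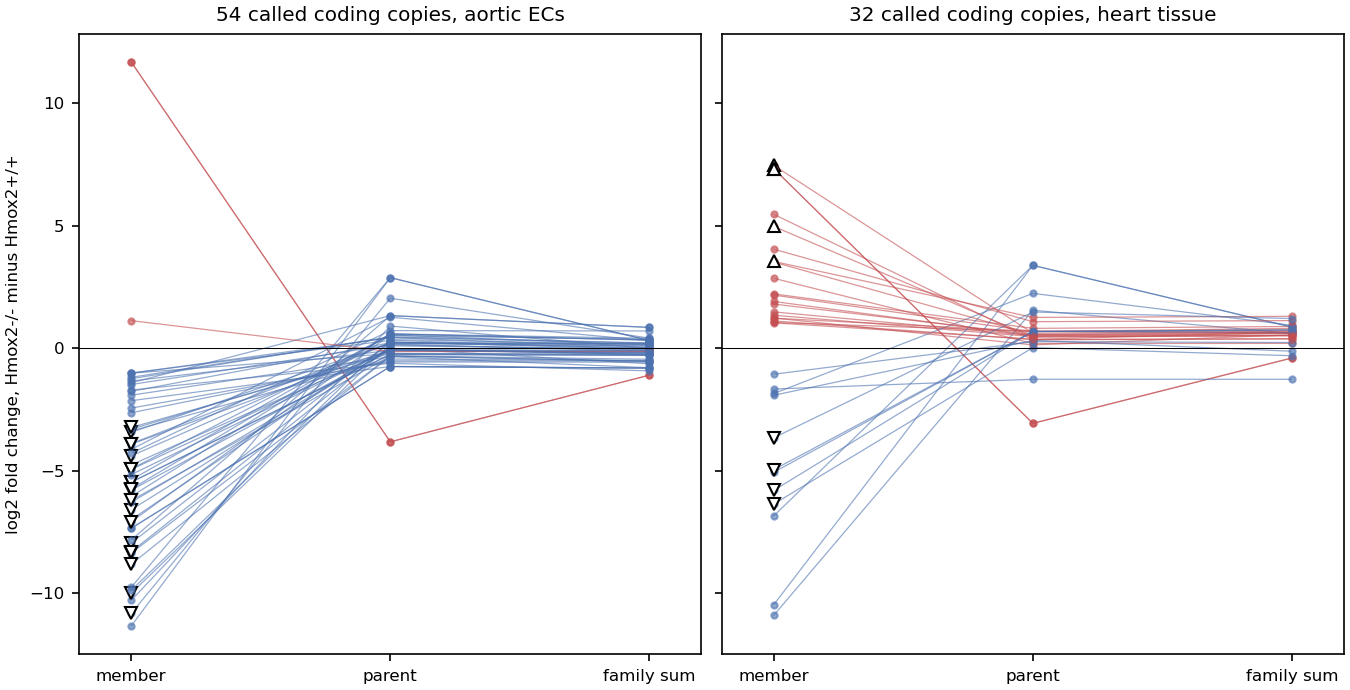
Log2 fold change (Hmox2-/- over Hmox2+/+) of each called coding copy, of its parent and of the family sum, joined by a line, in aortic ECs (54 copies) and heart tissue (32 copies), red for copies called higher and blue for lower. Open triangles mark lower bounds for copies with 0 counts in 1 genotype, and the family sums have a median of -0.09 in ECs, where Rpl29 is called lower, and of 0.60 in heart tissue, where Hmgn2 and Ppp1r14b are called higher and Dst lower.

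Rps3a2 and Rps3a3, copies of Rps3a1 for a protein of the small ribosomal subunit, were near 0 in every Hmox2-/- library of both tissues. Windows of the 3 transcripts, with the 5 positions at which they differ there in capitals, are given because such bases are what tells the copies apart. Each window shown beside a parent was chosen in its coding sequence for the number of differing positions, so further differences can lie outside it. Sequences here are those of GENCODE M39 transcripts on GRCm39, read 5′ to 3′ on the transcript strand: Rps3a1 chr3:86045794-86046450, minus strand, across 2 exons, Rps3a2 chr14:88360576-88360785, minus strand, and Rps3a3 chr13:108807596-108807805, plus strand.
Rps3a1: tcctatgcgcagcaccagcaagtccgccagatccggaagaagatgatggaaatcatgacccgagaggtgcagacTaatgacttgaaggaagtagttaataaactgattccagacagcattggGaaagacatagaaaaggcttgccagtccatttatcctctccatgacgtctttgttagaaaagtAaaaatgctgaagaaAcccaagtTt
Rps3a2: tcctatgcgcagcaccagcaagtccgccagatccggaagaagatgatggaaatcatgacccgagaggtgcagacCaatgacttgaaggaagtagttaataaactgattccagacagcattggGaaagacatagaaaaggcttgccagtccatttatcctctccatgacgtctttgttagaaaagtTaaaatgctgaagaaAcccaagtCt
Rps3a3: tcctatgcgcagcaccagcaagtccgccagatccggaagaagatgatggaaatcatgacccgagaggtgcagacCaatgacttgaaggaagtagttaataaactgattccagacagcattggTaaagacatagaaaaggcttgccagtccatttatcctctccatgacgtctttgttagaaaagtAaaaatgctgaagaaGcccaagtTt
Each copy differed from Rps3a1 at 3 of the 210 bases.

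Rps3a2 was at 373, 358 and 439.5 CPM in Hmox2+/+ ECs and at 0.142, 0.153 and 0.147 CPM in Hmox2-/- ECs. In hearts it was at 133, 144, 133 and 121 CPM in Hmox2+/+ and at 0, 0.151 and 0.120 CPM in Hmox2-/- mice, so the genotypes were far apart in both tissues. Rps3a3 was at 69.1 to 86.3 CPM in Hmox2+/+ ECs and 0.0383 to 0.142 CPM in Hmox2-/- ECs, and at 23.2 to 25.6 against 0.0598 to 0.302 CPM in hearts. The log2 fold change of Rps3a2 was -11.33 ± 0.22 (SE) in ECs and -10.46 ± 0.28 in heart tissue (edgeR, adjusted p = 7.72e-07 and 2.02e-09). That of Rps3a3 was -9.76 ± 0.27 and -6.84 ± 0.25 (edgeR, adjusted p = 5.88e-06 and 1.64e-08). These SE were worked back from the test and can be smaller than the counting error of the few counts in Hmox2-/- libraries. The parent Rps3a1 was at 96.9, 88.7 and 100.3 CPM in Hmox2+/+ ECs and at 801, 674 and 623 CPM in Hmox2-/- ECs, a log2 fold change of 2.88 ± 0.16 (edgeR, adjusted p = 0.000166), and rose by 3.38 ± 0.12 in heart tissue. With its pseudogenes added the family was at 516 to 627 CPM in Hmox2+/+ and 624 to 801 CPM in Hmox2-/- ECs, and the log2 fold change was 0.31 ± 0.17 in ECs (edgeR, adjusted p = 0.229) and 0.86 ± 0.11 in heart tissue (edgeR, adjusted p = 0.000297, under 2-fold). Rps3a2 took 79.4% to 81.4% of the counts of the pair with Rps3a1 in Hmox2+/+ ECs and at most 0.0263% in Hmox2-/- ECs.

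Gm15459 is a copy of the whole coding sequence of Hspa8, the constitutive heat shock cognate 70 chaperone, and its split from the parent was close to even in Hmox2+/+ mice. A window with its 2 positions of difference in capitals lies at chr9:40713818-40714172, plus strand, across 2 exons, for Hspa8 and at chr5:5833007-5833246, minus strand, for Gm15459.
Hspa8: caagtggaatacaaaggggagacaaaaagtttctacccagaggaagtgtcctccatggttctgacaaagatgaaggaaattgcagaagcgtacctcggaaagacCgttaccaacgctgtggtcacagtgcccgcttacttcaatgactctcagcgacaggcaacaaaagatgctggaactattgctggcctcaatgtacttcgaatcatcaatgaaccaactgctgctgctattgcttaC
Gm15459: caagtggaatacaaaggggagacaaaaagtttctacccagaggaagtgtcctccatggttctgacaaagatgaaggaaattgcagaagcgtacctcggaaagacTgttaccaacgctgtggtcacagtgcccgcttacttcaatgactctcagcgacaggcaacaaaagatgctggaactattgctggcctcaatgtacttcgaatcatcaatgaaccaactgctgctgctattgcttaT
Gm15459 was at 585, 529 and 499 CPM in Hmox2+/+ ECs, and at 0.744, 0 and 0.515 CPM in Hmox2-/- ECs. In hearts it was at 533, 609, 533 and 479.8 CPM in Hmox2+/+ and at 0.294, 0.0605 and 0.479 CPM in Hmox2-/- mice. The groups did not overlap, with a log2 fold change of -10.29 ± 0.65 in ECs and -10.89 ± 0.31 in heart tissue (edgeR, adjusted p = 0.000309 and 2.94e-09). Hspa8 was at 656, 621 and 566 CPM against 1011, 1074.3 and 1356 CPM in ECs, and at 519 to 659 against 1657 to 1753 CPM in hearts. Its log2 fold change was 0.90 ± 0.18 in ECs, under the 2-fold criterion, and 1.55 ± 0.10 in heart tissue (edgeR, adjusted p = 0.0185 and 2.75e-06). Added together, the pair changed by -0.01 ± 0.19 in ECs and 0.60 ± 0.10 in heart tissue (edgeR, adjusted p = 0.984 and 0.0018).

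Rps7-ps3, an X-linked copy of Rps7 for another small-subunit protein, separated the tissues as well as the genotypes. Its first 210 bases (chrX:151692907-151693116, minus strand) are shown beside the start of the Rps7 coding sequence (chr12:28684289-28685653, minus strand, across 3 exons), with the 3 differences in capitals.
Rps7: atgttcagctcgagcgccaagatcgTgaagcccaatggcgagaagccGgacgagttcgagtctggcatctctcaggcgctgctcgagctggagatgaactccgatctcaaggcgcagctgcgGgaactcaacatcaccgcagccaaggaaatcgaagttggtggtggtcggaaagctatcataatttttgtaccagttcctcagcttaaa
Rps7-ps3: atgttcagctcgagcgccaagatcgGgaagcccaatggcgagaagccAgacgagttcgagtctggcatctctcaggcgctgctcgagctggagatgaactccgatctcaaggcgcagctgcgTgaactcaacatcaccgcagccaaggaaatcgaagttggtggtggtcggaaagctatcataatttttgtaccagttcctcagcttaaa
Rps7-ps3 was at 201, 188 and 209 CPM in Hmox2+/+ ECs and at 0 in all 3 Hmox2-/- EC libraries, at least 1805-fold lower (against a floor of 3 counts per library). In hearts it was at 85.4, 80.1, 84.5 and 72.4 CPM in Hmox2+/+ mice and still at 44.6, 11.4 and 10.9 CPM in Hmox2-/- mice, a log2 fold change of -1.85 ± 0.41 (edgeR, adjusted p = 0.00699), which was -2.85 without Hmox2-/- replicate 1. The difference between the tissues passed the interaction test (edgeR, adjusted p = 3.94e-05). Rps7 rose by 2.04 ± 0.17 in ECs and 2.23 ± 0.18 in heart tissue on the log2 scale (edgeR, adjusted p = 0.00126 and 1.43e-05), and the pair added together changed by 0.41 ± 0.16 and 0.93 ± 0.17 (edgeR, adjusted p = 0.11 and 0.00214).

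Rpl29, for a protein of the large ribosomal subunit, showed the reverse, with copies present in Hmox2-/- mice. Gm13841 and Gm8210 are identical to each other in sequence and were given the same values, so they count as 1 measurement. The window of Rpl29 lies at chr9:106307530-106308465, plus strand, across 2 exons, and that of Gm13841 at chr5:115939919-115940158, minus strand, with the 2 differences in capitals.
Rpl29: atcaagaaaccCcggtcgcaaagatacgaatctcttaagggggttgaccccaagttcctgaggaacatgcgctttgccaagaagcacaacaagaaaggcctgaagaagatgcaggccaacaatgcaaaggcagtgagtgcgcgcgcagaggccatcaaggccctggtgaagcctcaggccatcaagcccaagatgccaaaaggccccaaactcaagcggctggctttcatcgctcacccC
Gm13841: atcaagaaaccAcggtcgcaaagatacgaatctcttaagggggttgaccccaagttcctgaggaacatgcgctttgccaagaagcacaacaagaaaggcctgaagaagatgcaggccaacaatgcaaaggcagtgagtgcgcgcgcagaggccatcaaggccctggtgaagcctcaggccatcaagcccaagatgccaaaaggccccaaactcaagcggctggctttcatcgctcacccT
Gm13841 was at 0, 0.0334 and 0 CPM in Hmox2+/+ ECs and at 55.2, 53.0 and 44.2 CPM in Hmox2-/- ECs. The only count in Hmox2+/+ ECs gives a ratio of 4517, with an exact Poisson interval of 811 to 178399 that covers counting error only. In hearts it was at 0 in all 4 Hmox2+/+ libraries and at 35.7, 31.1 and 25.4 CPM in Hmox2-/- mice, at least 159.6-fold higher. Rpl29 was at 237, 268 and 267 CPM in Hmox2+/+ ECs and at 18.7, 20.6 and 15.4 CPM in Hmox2-/- ECs, and at 91.8 to 104 against 9.45 to 12.9 CPM in hearts. Its log2 fold change was -3.82 ± 0.15 in ECs and -3.07 ± 0.13 in heart tissue (edgeR, adjusted p = 2.76e-05 and 3.69e-08). The family sum fell by 1.10 ± 0.14 in ECs, where it was still called, and by 0.40 ± 0.12 in heart tissue (edgeR, adjusted p = 0.00474 and 0.0205).

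**Figure D2:**
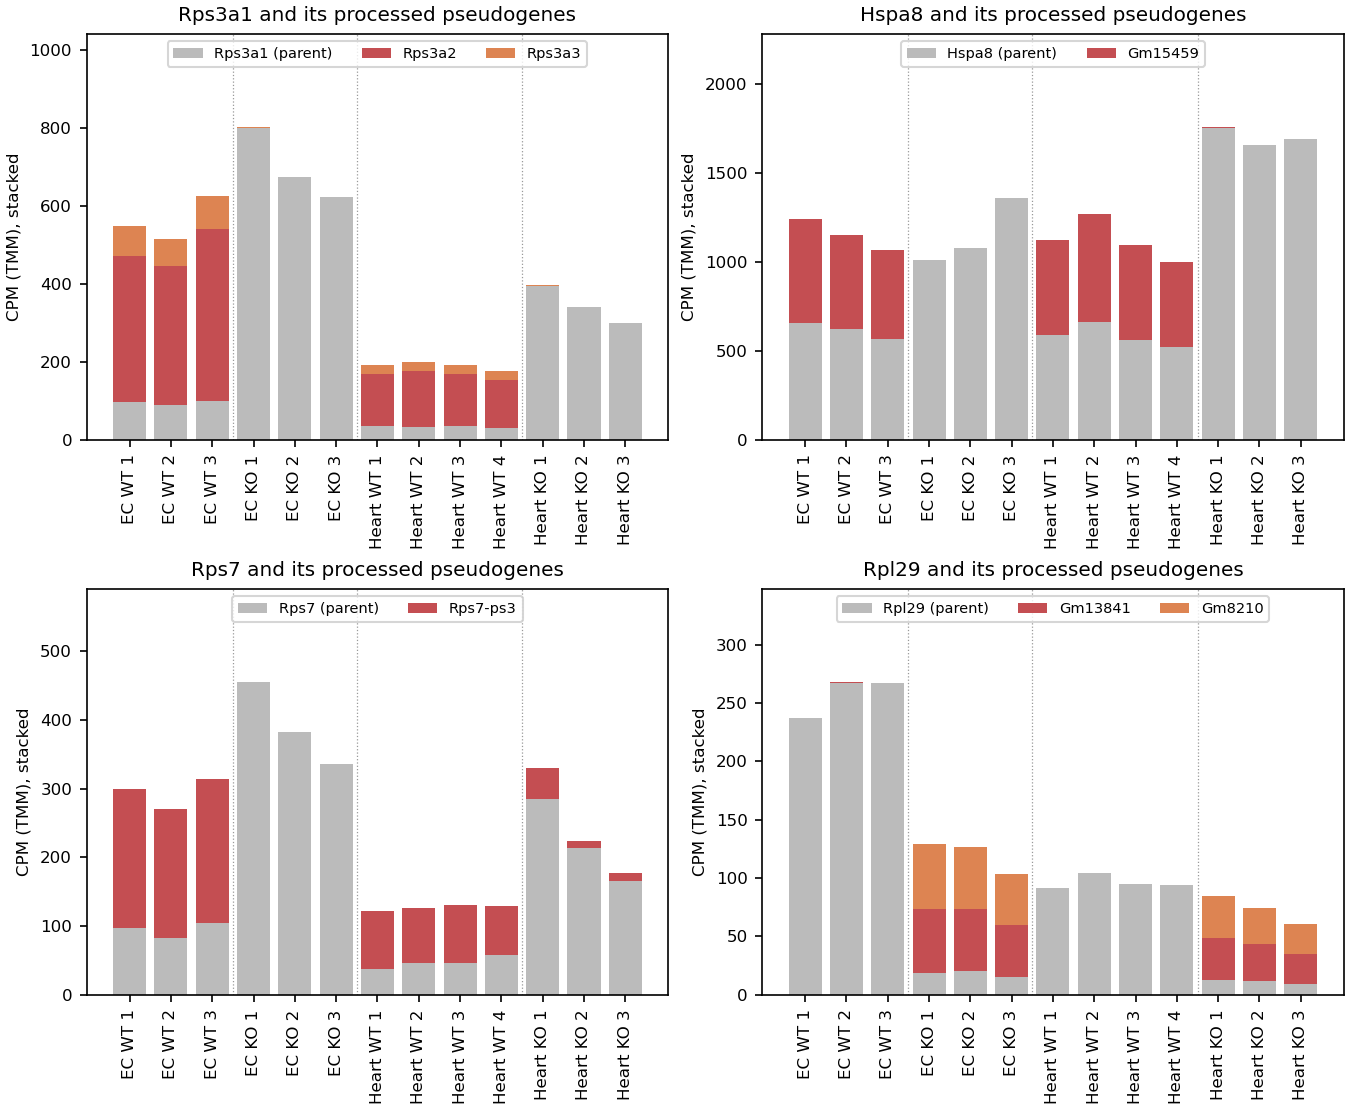
Stacked CPM of a parent (grey) and its processed pseudogenes (red and orange) in each of the 13 libraries for Rps3a1, Hspa8, Rps7 and Rpl29 (WT is Hmox2+/+, KO is Hmox2-/-). Rps3a2, Rps3a3 and Gm15459 fill most or a large part of the bars in Hmox2+/+ libraries and under 1 CPM in Hmox2-/- libraries, and Gm13841 and Gm8210 appear in Hmox2-/- libraries.

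Rpl15, for a large-subunit protein, had 4 expressed copies that did not move together. Their differences are shown over 150 bases at chr14:4199252-4199401, plus strand for Rpl15, chr15:52341469-52341618, minus strand for Rpl15-ps6, chr9:71968223-71968372, plus strand for Rpl15-ps2 and chr9:22097362-22097511, minus strand for Rpl15-ps3, with the 4 variable positions in capitals.
Rpl15: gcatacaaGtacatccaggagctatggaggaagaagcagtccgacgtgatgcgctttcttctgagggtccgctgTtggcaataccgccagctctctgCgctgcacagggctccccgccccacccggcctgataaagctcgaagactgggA
Rpl15-ps6: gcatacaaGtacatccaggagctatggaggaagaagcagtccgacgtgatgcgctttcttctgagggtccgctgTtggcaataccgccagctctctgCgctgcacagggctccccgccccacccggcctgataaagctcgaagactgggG
Rpl15-ps2: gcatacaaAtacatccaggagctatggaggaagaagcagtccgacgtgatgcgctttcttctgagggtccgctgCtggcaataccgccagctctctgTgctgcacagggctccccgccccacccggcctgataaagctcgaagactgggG
Rpl15-ps3: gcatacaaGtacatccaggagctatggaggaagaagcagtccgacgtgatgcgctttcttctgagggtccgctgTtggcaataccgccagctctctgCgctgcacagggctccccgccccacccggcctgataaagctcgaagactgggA
Rpl15-ps2 differed from Rpl15 at 4 of these bases, Rpl15-ps6 at 1 and Rpl15-ps3 at 0. Rpl15-ps2 was at 6.17, 5.08 and 6.52 CPM in Hmox2+/+ ECs and 2.29 to 3.81 CPM in Hmox2+/+ hearts and at 0 in all 6 Hmox2-/- libraries, at least 53.6-fold lower in ECs and 30.99-fold in hearts. Rpl15-ps6 was at 16.2, 19.8 and 23.0 CPM against 0.213, 0 and 0.662 CPM in ECs and at 7.58 to 7.89 against 0.0605 to 0.323 CPM in hearts. Rpl15-ps3, which has no word of its own, was at 37.4, 35.6 and 18.1 against 16.5, 23.5 and 20.2 CPM in ECs, where the genotypes overlapped, and at 7.01 to 12.2 against 40.0 to 52.9 CPM in hearts. Its log2 fold change was 2.16 ± 0.18 in heart tissue and -0.60 ± 0.27 in ECs (edgeR, adjusted p = 1.53e-05 and 0.164). The fourth copy, Gm4294, overlapped between genotypes in both tissues. Rpl15 itself changed by 0.58 ± 0.14 in ECs and 0.68 ± 0.12 in heart tissue, under 2-fold in both.

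Near-absence in Hmox2-/- mice and presence in Hmox2+/+ mice, taken as at most 0.5 CPM in every library of one genotype and at least 1 CPM in every library of the other, held in both tissues for 5 members, all of them coding copies: Rps3a2, Rps3a3, Rpl15-ps2, Gm45315 and Rbpj-ps3. The opposite held in both tissues for Gm13841 and Gm8210. The share of all genes that meets these limits was not computed. Members could enter through the genotype in which they were high, which favours the pattern, so its counts are a description only. Gm45315, 1 of 2 copies of Hmgb1 (a chromatin-binding HMG protein), was at 15.5, 14.6 and 14.3 against 0.177, 0 and 0 CPM in ECs and at 4.46 to 5.44 against 0 CPM in hearts. Rbpj-ps3, a copy of the gene of the Notch pathway transcription factor Rbpj, was at 16.02, 9.32 and 19.4 CPM in Hmox2+/+ ECs and 6.54 to 8.38 CPM in Hmox2+/+ hearts and at 0 in all 6 Hmox2-/- libraries, at least 135-fold lower in ECs and 81.9-fold in hearts. H2af-ps2, a copy of the histone gene H2ac18, was at 2.77, 2.11 and 2.10 CPM and 0.724 to 1.84 CPM in the Hmox2+/+ libraries of the 2 tissues and likewise at 0 in all 6 Hmox2-/- libraries. Atp5mg, for a subunit of ATP synthase, had a copy that appeared in one group. Gm10221 was at 0 in all 6 EC libraries and all 4 Hmox2+/+ hearts and at 43.9, 30.6 and 26.6 CPM in Hmox2-/- hearts, at least 175-fold higher. All of its words lie in Atp5mg, so this bound covers counting error and not the division of reads with the parent. Atp5mg was at 346 to 369.9 CPM in Hmox2+/+ hearts and 412 to 713 CPM in Hmox2-/- hearts. Rpl14-ps1 and Gm10182 (a copy of Hmgn2, an HMG protein of nucleosomes) were also at 0 in all Hmox2+/+ hearts and at 12.5, 1.72 and 3.77 CPM and 4.35, 1.60 and 0.748 CPM in Hmox2-/- hearts.

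A further 23 members, all coding copies, met this pattern in ECs and not in hearts, again without a share of all genes to set beside them. Gm8783 and Gm15801 among them have the same values. Here this means that the CPM limits were not both met in hearts. Some of the 23 were also at or near 0 in Hmox2-/- hearts, H2af-ps2 among them. Rps6-ps4, a copy of the gene of the small-subunit protein phosphorylated by S6 kinase, was at 109, 135 and 94.2 CPM in Hmox2+/+ ECs and at 0 in all 3 Hmox2-/- ECs, at least 1019-fold lower. In hearts it was at 0, 24.6, 35.6 and 0 CPM in Hmox2+/+ mice and 80.7, 31.9 and 12.7 CPM in Hmox2-/- mice, so the genotypes overlapped, and 2 of the 4 Hmox2+/+ hearts were at 0. Gm5537, a copy of Pgk1, was at 73.1, 44.0 and 32.2 CPM against 0 in ECs, at least 450.2-fold lower, and at 19.0 to 39.4 against 26.2 to 51.7 CPM in hearts. Rpl36a-ps2 was at 24.4, 25.5 and 31.7 CPM against 0 in ECs, at least 246-fold lower, and at 0.892 to 6.93 against 6.65 to 14.8 CPM in hearts. Gm12918 (copy of Rpl13) was at 31.3, 40.4 and 33.0 CPM against 0 in ECs, and in hearts at 11.2, 13.5, 1.98 and 0 against 11.6, 0 and 24.7 CPM. Gm15500, a copy of Rpl5, was at 14.1, 16.5 and 1.27 CPM against 0 in ECs and at 6.25, 8.73, 26.9 and 0 against 54.2, 56.1 and 35.2 CPM in hearts, where the family sum was called higher (log2 fold change 1.41 ± 0.31, edgeR adjusted p = 0.00595) while Rpl5 alone was at 9.80 to 11.6 against 6.55 to 11.2 CPM. Its EC call was lost without Hmox2-/- EC replicate 3 (edgeR, adjusted p = 0.0618). Smaller members of the same pattern were Gm12751 (copy of Polr1d, an RNA polymerase subunit), at 4.21 to 8.82 CPM against 0 in ECs, and Gm9830 (copy of Ramac, a partner of the mRNA cap methyltransferase), at 3.12 to 3.71 CPM against 0. None of Rps6-ps4, Gm5537, Rpl36a-ps2, Gm12918, Gm15500, Gm12751 and Gm9830 holds a word of its own, and the parents stayed under the 2-fold criterion in both tissues. The folds against 0 given for these copies cover counting error only, and not error in how reads were divided with the parent. Among Hmox2+/+ hearts alone, the share of Rps6-ps4 in the counts of its pair ran from 4.12e-09% to 19.2%.

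**Figure D3:**
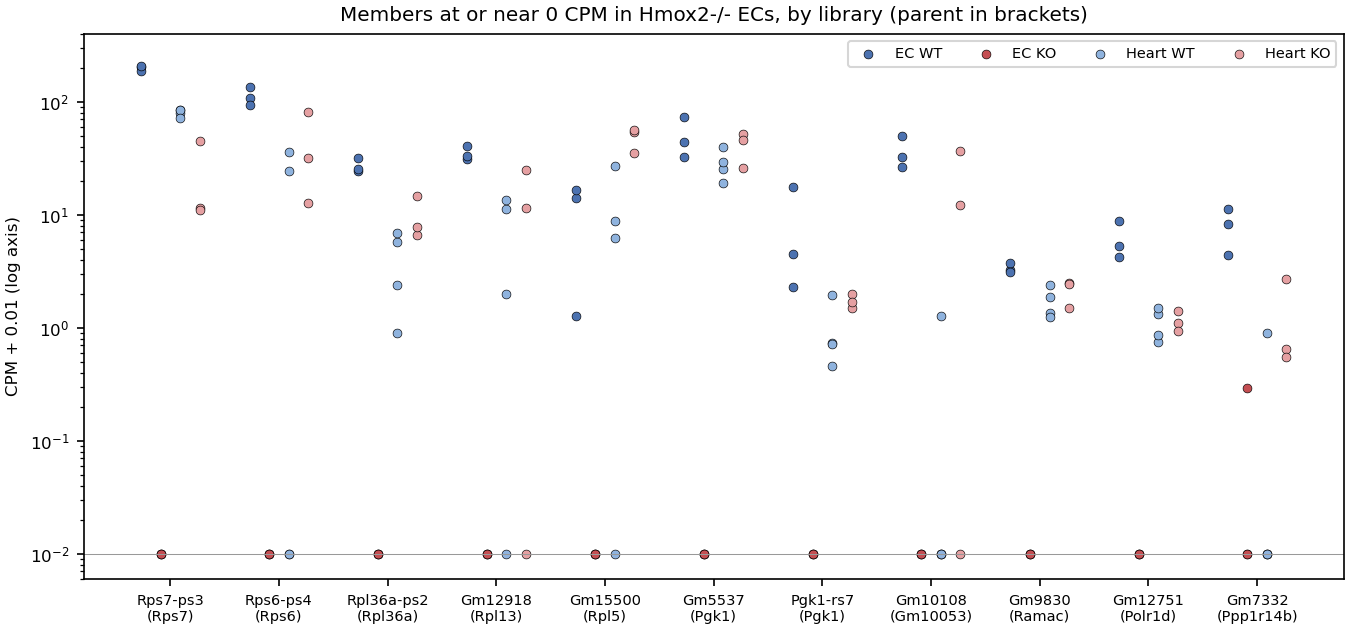
CPM of 11 members in every library (log axis, 0.01 CPM added, so that 0 is drawn at 0.01), coloured by group (WT is Hmox2+/+, KO is Hmox2-/-), with the parent in brackets. In Hmox2-/- ECs the points lie at the bottom line or below 0.5 CPM, and in Hmox2-/- hearts most of the same members lie among or above the Hmox2+/+ hearts.

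The interaction of tissue and genotype was called for 81 of 146 members tested (adjusted p at most 0.05, edgeR), beside 28.8% of all genes, with the heart difference above the EC difference for 65 and below it for 16. The choice of members favours a call here too, since 67 met the threshold in Hmox2+/+ ECs and not in Hmox2-/- ECs. Of the 41 members at the threshold in all 4 groups, all tested, 29 were called, 29 with the heart difference above and 0 below. Of the 114 members tested in both tissues, 11 were called lower and 2 higher in both, beside 0.929% of all genes called in the same direction, and 10 were called in opposite directions, beside 0.682%. Of these 10, 9 were lower in ECs and higher in hearts. Gm12338 had the lowest interaction p of these 9. Its 192 bases (chr11:75490589-75490780, minus strand) match the whole Cox7c coding sequence with no difference, so no read within it could be told from the parent.
Gm12338: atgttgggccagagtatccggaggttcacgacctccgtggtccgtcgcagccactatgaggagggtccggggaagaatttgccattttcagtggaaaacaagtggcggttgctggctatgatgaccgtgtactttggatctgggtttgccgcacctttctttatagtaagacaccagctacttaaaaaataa
Gm12338 was at 21.5, 16.3 and 16.04 CPM in Hmox2+/+ ECs and at 1.24, 2.76 and 1.18 CPM in Hmox2-/- ECs, and at 9.37, 7.24, 14.6 and 8.67 against 34.0, 19.99 and 22.2 CPM in hearts. The genotypes did not overlap in either tissue, with a log2 fold change of -3.38 ± 0.35 in ECs and 1.34 ± 0.24 in heart tissue and a difference of 4.77 ± 0.44 (edgeR, adjusted p = 0.00264, 0.00249 and 2.42e-05). Cox7c was at 410.1, 442 and 333 against 284, 316 and 271 CPM in ECs and at 289.6 to 331 against 342 to 538 CPM in hearts. Its log2 fold change was -0.44 ± 0.16 and 0.47 ± 0.14 (edgeR, adjusted p = 0.0853 and 0.023), the same signs as the copy at a smaller size.

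The other 8 members lower in ECs and higher in hearts were copies of ribosomal, glycolytic, mitochondrial and regulatory genes. Rps16-ps2 was at 115, 124 and 139 against 67.6, 54.0 and 64.3 CPM in ECs and at 17.8 to 25.7 against 34.8 to 67.5 CPM in hearts, log2 fold changes of -1.02 ± 0.13 and 1.05 ± 0.20 (edgeR, adjusted p = 0.00462 and 0.00348). Rpl10a-ps1 changed by -1.01 ± 0.13 and 1.03 ± 0.16 (edgeR, adjusted p = 0.00449 and 0.00127), and Gm12481, a copy of Serf2, by -1.02 ± 0.12 and 1.80 ± 0.28 (edgeR, adjusted p = 0.00365 and 0.00135). These 3 EC changes lie on the 2-fold line. Rps16-ps2 was at -0.93 without Hmox2-/- replicate 2, Rpl10a-ps1 at -0.90 and Gm12481 at -0.95 without Hmox2-/- replicate 3, and in hearts Rps16-ps2 was at 0.73 and Rpl10a-ps1 at 0.93 without Hmox2-/- replicate 1. Gm15387, the second Hmgb1 copy, was at 26.6, 36.1 and 29.2 against 10.3, 17.5 and 6.73 CPM in ECs and at 8.25 to 14.4 against 23.7 to 24.96 CPM in hearts, while Hmgb1 rose by 1.33 ± 0.12 in ECs and was 0.69 ± 0.13 higher in hearts, under 2-fold. The EC call of Gm15387 was lost when any of 4 of the 6 libraries was left out (edgeR, adjusted p of up to 0.0753). Gm10108 (copy of Gm10053) was at 49.9, 32.4 and 26.3 CPM against 0 in ECs, and in hearts at 36.6, 12.2 and 0 CPM in Hmox2-/- mice against 0, 0, 1.26 and 0 CPM, so 1 Hmox2-/- heart was at 0. Gm7332 (copy of Ppp1r14b, an inhibitor of protein phosphatase 1), Gm14494 (copy of Tomm20, the mitochondrial import receptor) and Pgk1-rs7 (copy of Pgk1) lay between 0 and 3.73 CPM in hearts, and their heart calls rested on several libraries. The heart call of Gm7332 was lost when any of 4 of the 7 libraries was left out, that of Gm14494 for 3 and that of Pgk1-rs7 for 6 (edgeR, adjusted p of up to 0.0928, 0.113 and 0.127), Hmox2-/- replicate 1 among them each time. The EC call of Pgk1-rs7 was lost without Hmox2-/- replicate 3 (edgeR, adjusted p = 0.0551). The EC call of Gm14494 was lost without any of 5 of the 6 libraries (edgeR, adjusted p of up to 0.109).

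The same order of the tissues held for most of the 10 most abundant members, whose differences in hearts were positive for all 10. The median log2 fold change over the 100 parents of coding copies was also positive in hearts, at 0.40. Rps12-ps3 changed by 0.18 ± 0.17 in ECs and 0.74 ± 0.12 in hearts, Rps23-ps1 by -0.41 ± 0.13 and 0.68 ± 0.18, Gm7536 by -0.26 ± 0.13 and 0.76 ± 0.16, Rpl34-ps1 by 0.01 ± 0.15 and 0.88 ± 0.14, Rpl31-ps8 by -0.47 ± 0.15 and 0.85 ± 0.22, Gm12191 by -0.14 ± 0.13 and 0.56 ± 0.14 and Ndufb4c by -0.64 ± 0.17 and 0.97 ± 0.17 on the log2 scale. None of these 7 was called in either tissue. Tpt1-ps3 was at 368, 343 and 394 against 141, 151 and 193 CPM in ECs, where it was called lower at -1.19 ± 0.16 (edgeR, adjusted p = 0.00529), and was 0.63 ± 0.14 higher in hearts. Gm10443 was at 45.4, 31.6 and 42.3 against 12.2, 16.5 and 14.0 CPM in ECs, called lower at -1.48 ± 0.18 (edgeR, adjusted p = 0.00376), and differed by 0.64 ± 0.24 in hearts, where the closest libraries of the 2 genotypes were at 8.03 and 8.05 CPM. Morf4l1-ps1, a copy of a chromatin subunit gene, was at 66.7, 58.5 and 59.5 against 29.1, 25.8 and 22.9 CPM in ECs and at 32.2 to 34.9 against 38.1 to 46.3 CPM in hearts, and the interaction was 1.58 ± 0.15 (edgeR, adjusted p = 3.29e-05). Rpl28-ps1 changed by -0.91 ± 0.12 in ECs and 0.89 ± 0.14 in hearts, with an interaction of 1.84 ± 0.19 (edgeR, adjusted p = 6.05e-05).

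**Figure D4:**
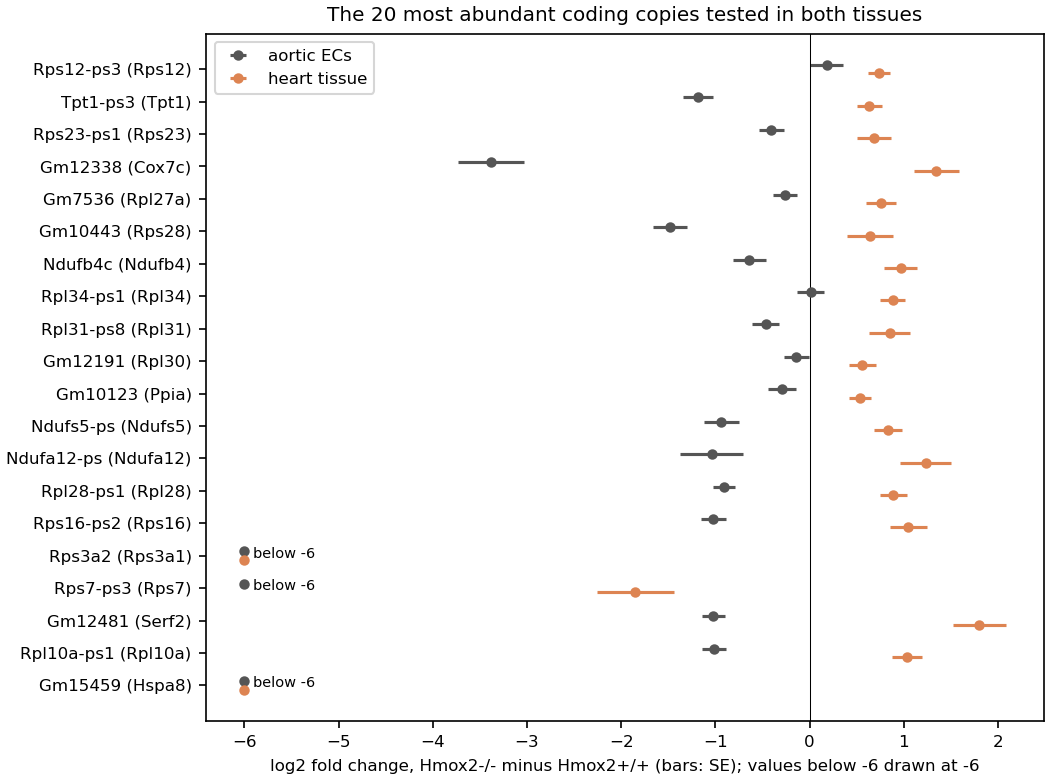
Log2 fold change (Hmox2-/- over Hmox2+/+) with its SE in aortic ECs (grey) and heart tissue (orange) for the 20 most abundant coding copies tested in both tissues, in order of mean TPM, with the parent in brackets. Apart from Rps3a2, Rps7-ps3 and Gm15459, which lie below -6 in 1 or both tissues and are drawn at -6, the heart values lie above 0 and above the EC values.

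Gm8116 and Gm50390 were called lower in both tissues. Both kept a level of at least 0.676 CPM in every Hmox2-/- heart. In Hmox2-/- ECs the lowest library was at 0.0354 CPM for Gm8116 and at 0.230 CPM for Gm50390. Gm8116, a copy of Carnmt1 (carnosine N-methyltransferase), was at 8.31, 14.1 and 11.99 against 0.0354, 1.84 and 0.110 CPM in ECs and at 13.4 to 22.8 against 2.72 to 7.39 CPM in hearts, log2 fold changes of -4.13 ± 0.97 and -1.92 ± 0.29 (edgeR, adjusted p = 0.0287 and 0.001). Carnmt1 was at 17.9, 8.49 and 8.78 against 30.2, 27.4 and 26.6 CPM in ECs, called higher at 1.26 ± 0.28 (edgeR, adjusted p = 0.025), a call that was lost without any 1 of the 3 Hmox2-/- libraries (edgeR, adjusted p = 0.065 to 0.0766). Gm50390, a copy of part of Dst (dystonin, a cytoskeletal linker), was at 1.44 to 3.89 against 0.230 to 1.03 CPM in ECs and at 2.48 to 3.57 against 0.676 to 0.957 CPM in hearts. Dst itself was at 509 to 577 against 107, 239 and 319 CPM in hearts, called lower at -1.27 ± 0.27 (edgeR, adjusted p = 0.00594), which was -0.93 without Hmox2-/- heart replicate 1. The EC calls of both members were lost when any of 4 of the 6 libraries was left out, at adjusted p of up to 0.0932 for Gm8116 and 0.105 for Gm50390 (edgeR), and the EC value of Gm8116 was -7.23 without Hmox2-/- replicate 2.

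Of 129 members tested in ECs 7 were called higher, a share like the 5.39% of all genes. Besides Gm13841 and Gm8210, which count as 1 measurement, these were Gm50443, Gm47933, Rpl28-ps2, Gm48119 and Ubb-ps. Gm47933 was at 0, 0.134 and 0.124 CPM in Hmox2+/+ ECs and 5.84, 5.29 and 8.68 CPM in Hmox2-/- ECs, and at 0.446 to 1.37 against 0.242 to 0.359 CPM in hearts. Gm48119 was at 0.517, 0.802 and 1.36 against 14.4, 10.7 and 16.4 CPM in ECs and at 1.49 to 2.87 against 0.558 to 0.817 CPM in hearts, the 1 member called higher in ECs and lower in hearts (log2 fold changes 3.93 ± 0.36 and -1.80 ± 0.31, edgeR adjusted p = 0.00183 and 0.00209). It shares words with Or13a18, an olfactory receptor gene, outside the coding sequence, and that gene changed by 4.26 ± 0.44 and -1.61 ± 0.39. Ubb-ps, a copy of the polyubiquitin gene Ubb, was at 2.95, 1.90 and 1.92 against 6.20, 4.41 and 4.12 CPM in ECs, called higher at 1.12 ± 0.29 (edgeR, adjusted p = 0.0388), and that call was lost without any of 5 of the 6 libraries, at adjusted p of up to 0.112.

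Of the 18 members that matched a gene only outside its coding sequence, 14 were tested in hearts, where 12 were called lower and 0 higher, beside 4.05% and 2.66% of all genes. In ECs 13 were tested, with 0 called lower and 2 higher, beside 3.89% and 5.39%. The count includes members chosen through their level in Hmox2+/+ hearts. Of the 18, 7 matched transcripts of Nopchap1, a chaperone of box C/D snoRNP assembly, on the opposite strand, and their shared words mean that their values are not independent. Gm48111 was at 56.5, 44.7, 21.4 and 41.5 CPM in Hmox2+/+ hearts and at 2.82, 6.84 and 3.11 CPM in Hmox2-/- hearts, a log2 fold change of -3.25 ± 0.37 (edgeR, adjusted p = 0.000159), with 3.03 to 6.02 against 2.91 to 3.95 CPM in ECs. Gm48415 was at 14.4, 12.5, 13.8 and 17.6 against 0.969, 1.36 and 1.32 CPM in hearts, at -3.58 ± 0.19 (edgeR, adjusted p = 3.53e-07), and Gm48416 fell by 2.84 ± 0.19. Gm49273, Gm48493 and Gm42857 fell by 2.30 ± 0.34, 1.77 ± 0.29 and 2.63 ± 0.40, and Gm42927 by 1.06 ± 0.20, which was 0.88 without Hmox2-/- replicate 1. Nopchap1 itself was at 114 to 135 CPM in Hmox2+/+ and 57.8 to 76.2 CPM in Hmox2-/- hearts, a log2 fold change of -0.90 ± 0.11 that stayed under 2-fold (edgeR, adjusted p = 0.000343), and its sum with the pseudogenes was called lower at -1.51 ± 0.14 (edgeR, adjusted p = 3.51e-05). These 7 members and Nopchap1 were named after their values were seen. Gm48850, which shares words with the vomeronasal receptor gene Vmn2r53, was at 0.724 to 1.70 against 0 to 0.0907 CPM in hearts.

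**Figure D5:**
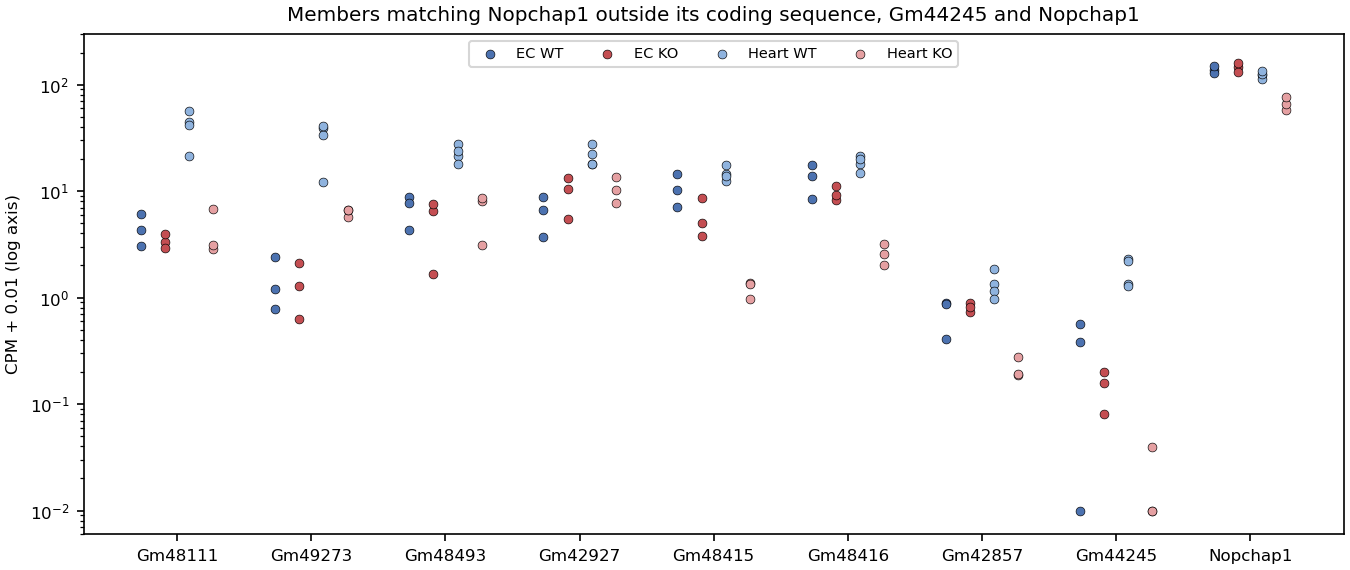
CPM in every library (log axis, 0.01 CPM added) of 7 members that match Nopchap1 outside its coding sequence, of Gm44245 and of Nopchap1, coloured by group (WT is Hmox2+/+, KO is Hmox2-/-). The Hmox2-/- hearts lie below the Hmox2+/+ hearts for all 9 genes, and the EC groups overlap for the 7 members.

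Of all members, 76 held no 31-base word of their own, and among the others few held most of their words to themselves. Of the 160, 21 had at least 50% of their words to themselves, and of these 10 were tested in ECs (2 called higher, 1 lower) and 9 in hearts (1 called lower). All genes were called higher and lower at 5.39% and 3.89% in ECs and at 2.66% and 4.05% in heart tissue. With so few members tested, these counts are a description only. The heart call was Gm44245, for which no parent was named and whose 232 bases (chr6:133540900-133541131, minus strand) share no 31-base word with another listed transcript.
Gm44245: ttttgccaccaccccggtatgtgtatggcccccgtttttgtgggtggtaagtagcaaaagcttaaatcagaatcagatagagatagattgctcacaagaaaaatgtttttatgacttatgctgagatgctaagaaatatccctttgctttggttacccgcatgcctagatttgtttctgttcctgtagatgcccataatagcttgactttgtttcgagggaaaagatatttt
Gm44245 was at 1.34, 1.28, 2.29 and 2.19 CPM in Hmox2+/+ hearts and at 0, 0 and 0.0299 CPM in Hmox2-/- hearts (edgeR, adjusted p = 4.2e-05). The single count in Hmox2-/- hearts gives a ratio of 178 with an exact Poisson interval of 32.02 to 7046. In ECs it was at 0 to 0.556 CPM and was not tested. Gm49591 was called lower in ECs, at 7.05, 5.35 and 3.15 against 0.850, 1.07 and 1.21 CPM (log2 fold change -2.30 ± 0.36, edgeR adjusted p = 0.00868), and was at 2.86 to 3.57 against 2.03 to 3.12 CPM in hearts. Gm50443 and Rpl28-ps2 were called higher in ECs, at 0, 0 and 0.0309 against 2.37, 0.996 and 1.66 CPM and at 0, 0.0668 and 0.0618 against 2.05, 1.57 and 3.02 CPM. The most abundant of the 21, Gm19220, varied within groups, at 225, 191 and 714 against 94.6, 107 and 277 CPM in ECs and at 166 to 332 against 55.1 to 285 CPM in hearts, and was called in neither tissue. Gm49591 and Gm19220 were named after their values were seen.

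Atp6v0c-ps2, Rps2-ps6 and Rnps1-ps were near 0 in a single library of each tissue. Atp6v0c-ps2 (copy of a vacuolar ATPase subunit gene) was at 12.6, 0.0383 and 11.8 CPM in Hmox2-/- ECs against 17.7 to 21.3 CPM in Hmox2+/+ ECs, and at 0, 10.9 and 10.1 against 12.96 to 17.8 CPM in hearts. Rps2-ps6 was at 10.02, 0.230 and 9.75 against 13.3 to 17.5 CPM in ECs and at 0.118, 9.98 and 7.81 against 13.1 to 19.7 CPM in hearts. Rnps1-ps (copy of the gene of an RNA-binding splicing factor) was at 5.99, 0.0383 and 5.85 against 13.2 to 16.1 CPM in ECs and at 0, 6.90 and 6.52 against 9.41 to 12.8 CPM in hearts. In each case the near-empty libraries were Hmox2-/- EC replicate 2 and Hmox2-/- heart replicate 1, and the other Hmox2-/- libraries lay below all Hmox2+/+ libraries. None of the 3 was called in either tissue, and they were picked out after their values were seen.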

How the data were processed

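RNA-seq libraries of aortic ECs and heart tissue were quantified by the authors with kallisto 0.44.0, and the deposited values are estimated counts and TPM for each transcript. The submitters' processing notes name the builds GRCh38.p13 and mm10, while the study's methods name a mouse GENCODE transcript set. Kallisto's default divides reads shared by several transcripts between them in proportion to estimated abundance, so values of near-identical copies depend on that division. Of 118489 listed transcripts 97.2% matched GENCODE M39 by identifier, and 0.755% to 1.01% of the counts of a library stayed unmatched and out of the tests. A match by identifier can differ in length, and the Rpl29 and Rpl15 transcripts shown have 3330 and 2336 bases in M39 against 733 and 802 as listed.

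Estimated counts were summed per gene, rounded to whole numbers, filtered with filterByExpr (minimum count of 10) and fitted within each tissue by edgeR 4.0.16 (R 4.3.3) with TMM factors, and the interaction was fitted over all 13 libraries. Benjamini-Hochberg adjustment ran over all genes tested, and CPM are TMM-scaled. Each SE is the absolute log2 fold change divided by the square root of the F value of the test. For copies near 0 in a genotype it can understate the error of the fold change. The rule on TPM and the test are both made from the same libraries. A parent was the protein-coding gene holding the largest share, at least 20%, of a member's 31-base words in GENCODE M39. Alignment with blastn 2.17.0 gave identity, and a member with any aligned base in the parent's coding sequence was called a coding copy. Members whose best gene overlapped their own locus were set apart, and that step, the split by coding sequence and the patterns by CPM limits were set after values were seen. A fold against a group at 0 used a floor of 3 counts per library. The exact Poisson interval is at the 95% level, and intervals and floors cover counting error only.

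The members and lists were chosen with earlier results of these data known. Named are Hmox2, the 10 members highest in TPM, the 10 largest non-overlapping calls per tissue and direction, members called in both tissues, the 10 lowest interaction p, those nearest the threshold, and their parents. DESeq2 1.42.0, upper-quartile factors, length-scaled TPM counts, no filter, a replicate block, 1 fit of all libraries, a test against a 2-fold change, no fold criterion and leaving out each library were the alternatives. The fitting steps were tested on simulated data. Replicate numbers were checked as pairs by correlating deviations from group means.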

Additional observations from a re-analysis of the deposited data

Results flagged for a closer look

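The effect of genotype differed between the tissues for 81 of 146 members by the interaction test (edgeR, adjusted p at most 0.05), beside 28.8% of all genes, and for 29 of the 41 at the threshold in all 4 groups. The choice of members by level favours such a difference. The 10 with the lowest p, given as the log2 fold change in heart tissue minus that in ECs, were Gm12338 at 4.77, Morf4l1-ps1 at 1.58, Rpl28-ps1 at 1.84, Gm48119 at -5.69 and Gm47933 at -7.43, and Rps7-ps3 at 13.25, Rpl36a-ps2 at 13.40, Gm5537 at 13.64, Gm12751 at 10.08 and Gm9830 at 9.60. The last 5 had 0 counts in all Hmox2-/- ECs, so their fitted differences depend on the fit and are no measured size.

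Among the Hmox2+/+ hearts, the only group of 4 libraries, 1 library stood apart from the other 3 (by Dixon's ratio at the 95% level) for 11 of 96 named genes. Chance gives about 5% for independent genes with continuous values, while copies and parents here share reads. Replicate 3 stood apart for the members Gm47933 (1.37 CPM), Gm10108 (1.26 CPM), Gm47441 (0.457 CPM) and Rpl15-ps2 (3.81 CPM) and for the parent Serf2 (247 CPM). The shallow replicate 1 stood apart for Gm7332 (0.892 CPM), Gm50390 (3.57 CPM) and Carnmt1 (44.2 CPM), and replicate 4 for the parents Rpl27a (56.9 CPM), Ndufb4 (47.8 CPM) and H2ac18 (12.4 CPM). For Gm10108 and Gm7332 the other 3 libraries were at 0, so the ratio would be 1 at any value above 0. The cause was not tested.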

How the results depend on the processing

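Reads shared between a copy and its parent limit every level given for a coding copy, because 69 of the 115 hold no 31-base word of their own, and the division between the copies cannot be redone from the deposited values. Over all 108 named parents, 7 were called higher in ECs alone and 4 with their pseudogenes added. Of the called members, 38 of 59 in ECs and 33 of 45 in heart tissue were called again without each library in turn. Hmox2+/+ heart replicate 1, at 7268626 counts, has the least depth for low members.

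A test against a 2-fold change itself left 31 members called lower in ECs, 7 higher and 16 lower in heart tissue. In heart tissue the count of higher calls was 35 with no filter on low counts and 39 by adjusted p alone, and in ECs 12 members were called higher in 1 fit of all 13 libraries. Leaving out each library gave 6 to 9 members higher and 37 to 50 lower in ECs, 12 to 29 higher and 23 to 26 lower in heart tissue and 70 to 84 for the interaction. A mean TPM limit of 2 gave 272 members and a limit of 10 gave 113. The cause was not tested.

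The log2 fold change of Rpl34-ps1 in ECs, 0.01, turned to -0.027 in 1 fit of all 13 libraries and ranged from -0.12 to 0.13 without each library. Of 708 alternative log2 fold changes of 59 named genes in ECs and 805 of 62 in heart tissue, 44 and 37 kept their direction and lost the call, 0 and 15 gained one, and the other reversals numbered 0. With DESeq2 and with upper-quartile factors, 0 reversals occurred.

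Replicate numbers were not taken as pairs in the main fits. Same-numbered libraries of the 2 genotypes had correlations of 0.18, 0.04 and 0.09 in ECs and -0.03, 0.08 and 0.04 in heart tissue. Without correlations of differently numbered libraries these values cannot decide whether samples are paired. Pairing of EC and heart libraries was not checked. With the replicate block, 7 members were called higher and 55 lower in ECs, 15 higher and 24 lower in heart tissue, and 75 for the interaction.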
